A study of Homo sapiens with 2 samples.

Results

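SOX9 and the gene desert around it were described in H3K27ac HiChIP data as the interaction loops whose anchors both overlapped chr17:68600000-70700000 (hg19) and were different from each other. The window held 280 of the 250222 nuclear anchors, and its loops numbered 2239 of 1413355 in replicate 1 and 2474 of 1616029 in replicate 2. The rule for the members used positions and no measured values, but the region was picked with earlier results of these data known. The SOX9 promoter, taken as the transcription start at chr17:70117161 on the plus strand ± 2.5 kb, lay in 1 anchor, chr17:70107012-70120249.

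HiChIP joins proximity ligation with immunoprecipitation, so that a loop is a pair of chromatin fragments that were ligated to each other and recovered with an antibody, here against H3K27ac, a histone mark of active enhancers and promoters. HCT116, an established human colorectal cancer cell line, was assayed in 2 replicates of 1 condition, with no treatment or genetic change named in the labels, which allowed no comparison between conditions. The labels did not say whether the replicates were separate cultures, so the spread between them may be technical. The unit was the raw count of paired-end tags that joined 2 anchors, and the libraries summed to 1885481 and 2131466 counts. The counts measure contacts of acetylated chromatin and not expression, so the identity of the cell line was not checked by marker genes.

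SOX9 encodes a transcription factor with an HMG box that binds the minor groove of DNA. It is required for the formation of cartilage and for testis determination, and in the intestine it is found in crypt progenitor and Paneth cells, where its gene is a target of WNT signalling. The gene is flanked by long stretches without coding genes. Distant regulatory elements have been mapped there, and rearrangements far from the gene are known from Pierre Robin sequence and from disorders of sex development.

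Sequences of 4 stretches that the results turn on are printed here from 5′ to 3′, with matches to GATC (the site of MboI, which cut the chromatin), CTTTGAT (a motif of TCF/LEF factors, which act in WNT signalling) and TGANTCA (the AP-1 motif) on either strand in capitals. No motif overlapped another in these stretches. The starts and the ends of all 8526 anchors of chromosome 17 lay at a GATC, so an anchor is a run of whole MboI fragments. The SOX9-AS1 promoter, which lies inside the SOX9 promoter anchor, and the LINC00511 promoter, which lies in the anchor with the second highest count of the window, are RefSeq sequences of 250 bases before to 50 after the start (table build GRCh38.p14). Both matched GRCh37 exactly on the minus strand, at chr17:70112108-70112407 and at chr17:70636562-70636861. The other stretches belong to the partner anchors of the SOX9 promoter at 100 kb or more with the highest counts, chr17:70290029-70294203 and chr17:70414846-70419533. They are the 300 bases of each anchor with the most TCF/LEF and AP-1 matches, chr17:70292118-70292417 and chr17:70417425-70417724 on the plus strand of GRCh37.
SOX9-AS1 promoter: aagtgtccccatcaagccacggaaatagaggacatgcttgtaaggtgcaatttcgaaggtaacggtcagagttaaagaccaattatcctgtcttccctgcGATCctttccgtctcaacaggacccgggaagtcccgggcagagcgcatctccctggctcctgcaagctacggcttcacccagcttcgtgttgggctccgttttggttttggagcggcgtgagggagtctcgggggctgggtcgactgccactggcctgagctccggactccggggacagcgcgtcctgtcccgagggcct
LINC00511 promoter: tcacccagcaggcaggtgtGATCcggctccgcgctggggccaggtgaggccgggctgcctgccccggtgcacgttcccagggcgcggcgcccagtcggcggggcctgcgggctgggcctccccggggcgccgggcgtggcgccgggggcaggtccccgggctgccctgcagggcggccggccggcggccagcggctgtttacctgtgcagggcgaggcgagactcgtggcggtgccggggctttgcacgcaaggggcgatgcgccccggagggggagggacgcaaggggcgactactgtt
partner of the SOX9 promoter at 178.5 kb: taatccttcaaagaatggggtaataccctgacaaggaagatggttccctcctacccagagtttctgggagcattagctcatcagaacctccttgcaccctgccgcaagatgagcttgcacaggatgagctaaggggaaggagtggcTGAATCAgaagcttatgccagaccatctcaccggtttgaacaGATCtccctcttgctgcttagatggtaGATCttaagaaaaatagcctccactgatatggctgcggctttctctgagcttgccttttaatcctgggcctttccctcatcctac
partner of the SOX9 promoter at 303.6 kb: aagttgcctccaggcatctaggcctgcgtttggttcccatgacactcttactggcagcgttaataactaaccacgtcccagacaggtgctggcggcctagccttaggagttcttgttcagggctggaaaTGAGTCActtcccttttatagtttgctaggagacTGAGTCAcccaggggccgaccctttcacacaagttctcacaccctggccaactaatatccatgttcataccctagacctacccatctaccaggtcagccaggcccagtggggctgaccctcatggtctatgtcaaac

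The distal stretches, chosen for their matches, held 1 and 2 AP-1 matches, and they are not comparable in this with the promoters printed, which were fixed by the start and held no match to either motif. Over their whole length the partner anchors held 2 and 5 AP-1 matches and 0 and 1 TCF/LEF matches, and the SOX9 promoter anchor held 2 and 0. The AP-1 motif occurred 0.436 times per kb in the anchors of the window and 0.321 times per kb in all anchors of chromosome 17. The TCF/LEF motif occurred 0.178 and 0.145 times per kb. The GC content of these anchors was 40.5% and 46.7%. Of 35116 RefSeq promoters of this length, 7.71% held an AP-1 match and 2.62% a TCF/LEF match. In the middle 300 bases of the anchors, an AP-1 match was found in 14.3% of the window and in 9.43% of chromosome 17. A match describes the letters of a stretch and is not evidence of binding.

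The SOX9 promoter anchor spanned 13.2 kb, from 10.2 kb before to 3.09 kb after the start, and covered the first and second exons of the gene and the beginning of the third. It also held the canonical start of SOX9-AS1, the antisense lncRNA gene, at chr17:70116946, and the separate RefSeq promoter of that gene printed above. Contacts of the SOX9 start and of the SOX9-AS1 starts therefore cannot be told apart. The anchor had 57 counts with other anchors of the window in replicate 1 and 76 in replicate 2 (66.5 ± 13.4, SD, n = 2). These counts were spread over 47 and 64 loops, that is, over 101 of the 279 possible partners, and 10 loops were found in both replicates. The summed count was 1 in 82 loops and 2 in 14 loops, and it reached 3 in 5 loops and 5 in 2 loops. The promoter of SOX9 thus had many partners with few counts each. Up to 2 Mb, the range used for all comparisons with the genome, the anchor had 60 and 78 counts, or 138 in sum, over 106 loops. The counts of the anchor with itself were 8 and 5.

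Among 16686 anchors at promoters of coding genes, 71 had more counts than that of SOX9, and the median was 26. Among all anchors of the genome the SOX9 promoter anchor was number 446, in the top 0.178%. The width of the anchor bore on this rank. Within the window it was number 8 of 280 by count and number 158 per kb of width, with 10.1 counts per kb. Over the window's anchors the count followed the width, with a Spearman's rho of 0.665 (n = 280 anchors, which share libraries and partners).

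The loops of the SOX9 promoter with summed counts of at least 3 fell into near and distal partners. The highest count joined it to the adjacent upstream anchor chr17:70102104-70104891 inside SOX9-AS1, with 5 and 4 counts at 10.1 kb. The next joined it to chr17:70080861-70087230, in SOX9-AS1 and LINC02097, with 3 and 2 counts at 29.6 kb. An expected count was computed for each pair of anchors from its distance and the depth of both anchors, and observed over expected was 1.22 (95% interval 0.557 to 2.31) and 1.53 (0.496 to 3.56) for these loops. Intervals are exact Poisson intervals and cover counting error only. Neither of the near loops stood above what distance and depth give. The distal loops ended in LINC00511, a long lncRNA gene transcribed toward SOX9. One reached the anchor chr17:70290029-70294203 with 1 and 2 counts (expected 0.787, ratio 3.81, 0.786 to 11.1), and the other reached chr17:70414846-70419533 with 1 and 2 counts (expected 0.826, ratio 3.63, 0.749 to 10.6). Both rest on 3 counts, and both intervals include 1.

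The remaining loop of this group joined the promoter anchor to the anchor just downstream, chr17:70121199-70126866, which holds the 3′ end of SOX9. It had 2 and 1 counts at 10.4 kb, where 14.3 were expected (ratio 0.210, 0.0434 to 0.614). The anchors at both ends of the gene were thus joined by fewer counts than distance and depth give, although they are neighbours. Distance alone gave 1.40 counts for this pair (ratio 2.14), so the shortfall rests on the depth of both anchors. The upstream neighbour at a like distance, 10.1 kb, had 9 counts.

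None of the 279 anchor pairs of the SOX9 promoter was called above expectation by a Poisson test (one-sided), adjusted by Benjamini-Hochberg across 51094602 pairs of the genome, at an adjusted p of 0.01. The share called in the genome was 6.26e-05%. At an unadjusted p under 0.05 there were 18 such loops, and against distance alone none was called either, with a lowest adjusted p of 0.0882 by the Poisson test. Over all 38976 pairs of the window within 2 Mb, 0 were called against distance and depth, with 1119 at an unadjusted p under 0.05 and a lowest adjusted p of 0.683 by the same test. The share of genome pairs at this unadjusted p is not given here, so neither 18 nor 1119 is read as an excess. Where little is expected, 1 count passes, as for SOX9 and chr17:68629540-68631347 (expected 0.0382, unadjusted p of 0.0375 by the same test). Against distance alone 46 were called, 0.118% of the pairs, beside 0.0100% in the genome. On counts simulated for chromosome 17 and adjusted across its 1880905 pairs, the test called 10, 38 and 126 of 200 pairs raised 5-, 10- and 20-fold. Moderate excesses at these single pairs were thus mostly not detectable at this depth. Only pairs above a minimum expected count were raised, which leaves out many far partners of SOX9. For those partners, and for the adjustment across the genome, the simulation does not give the detectable excess.

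The contacts of SOX9 leaned to long distances. Of its 138 counts, 110 joined the promoter anchor to anchors at 100 kb or more, which is 75% in replicate 1 and 83.3% in replicate 2 (79.2% ± 5.89, SD, n = 2; 79.7% of the sum, exact binomial 95% interval 72.0 to 86.1%). Among the 264 promoter anchors of coding genes with at least 100 counts, the median of this share was 47.9% (quartiles 40.0 and 57.8%), and 3 had a higher share. These anchors were not matched to that of SOX9 for width, and same-anchor counts were set aside. The part of the width in this share was not tested. Of those 264 anchors the median had 5 loops with a summed count of at least 5, and the SOX9 promoter anchor had 2. Distance and depth gave 77.1 counts at 100 kb or more (ratio 1.43, 1.17 to 1.72) and 60.9 at less than 100 kb, where 28 were observed (ratio 0.460, 0.306 to 0.665). The expected counts of an anchor sum to about its own total, so an excess at one range goes with a shortfall at another. The median ratio at 100 kb or more over the 280 anchors of the window was 1.13 (quartiles 0.997 and 1.25). Of the 98 anchors of the window with at least 50 counts, 6 had a higher ratio than the SOX9 promoter anchor. The anchor at the 3′ end of SOX9 was among these, with a ratio of 1.535.

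**Figure D1:**
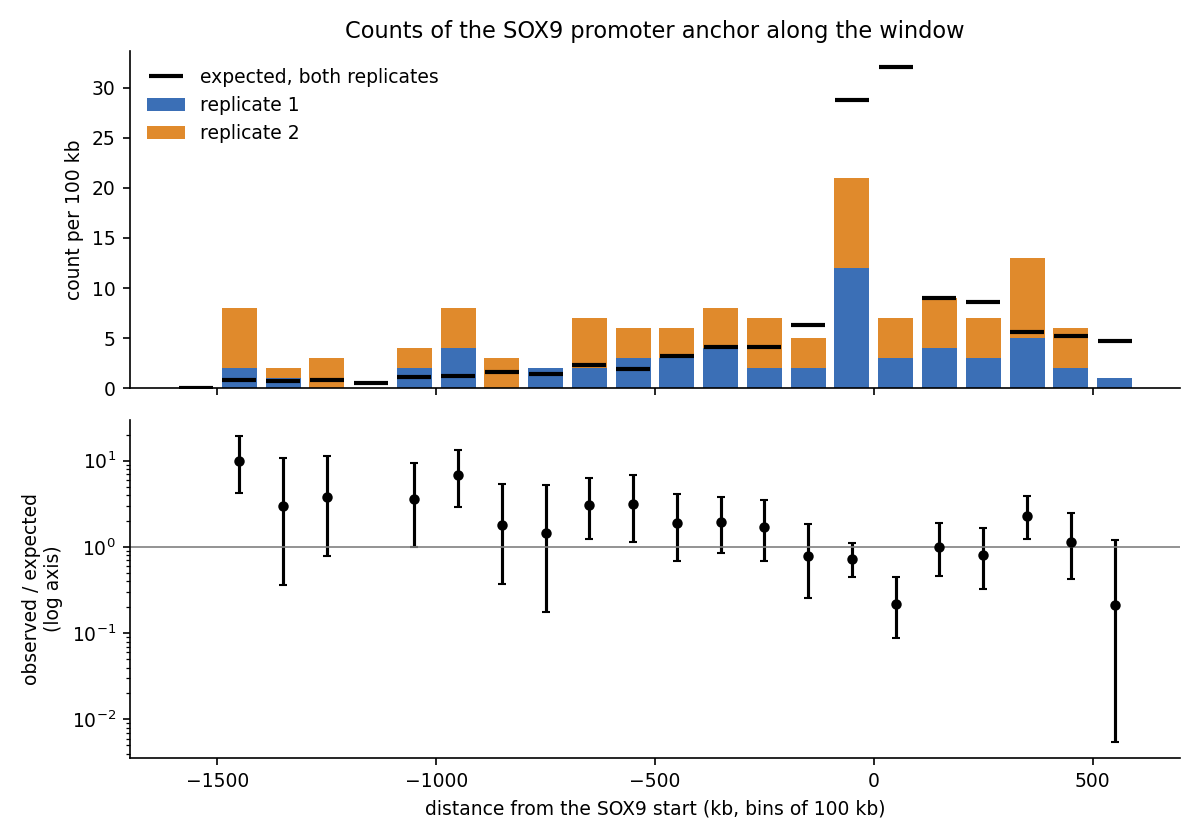
Counts of the SOX9 promoter anchor with anchors in bins of 100 kb (upper panel, bars stacked by replicate, black marks for the expected sum) and observed over expected with exact Poisson 95% intervals (lower panel, log axis), against the distance from the SOX9 start in kb. Bins with a count of 0 have no point in the lower panel. The first 100 kb downstream lay below expectation with 7 counts against 32.1 expected, and most bins of the left desert lay above it.

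The direction of the contacts was unequal beyond 500 kb. To the left, which is upstream of SOX9 and toward KCNJ2, the promoter anchor had 43 counts at more than 500 kb (16 and 27 in the replicates) where 14.1 were expected (ratio 3.06, 2.22 to 4.12). To the right, toward SLC39A11, it had 6 counts (4 and 2) where 16.8 were expected (ratio 0.357, 0.131 to 0.777). The intervals of the sides did not overlap, and the lean to the left was found in both replicates. In the first 100 kb the promoter had 21 counts upstream (expected 28.8, ratio 0.729, 0.451 to 1.11) and 7 downstream (expected 32.1, ratio 0.218, 0.0877 to 0.449). Between 300 and 400 kb downstream, inside LINC00511, it had 13 counts (5 and 8; expected 5.66, ratio 2.30, 1.22 to 3.93), the highest ratio of the downstream bins. The bins on either side, also in LINC00511, had ratios of 0.813 (0.327 to 1.68) and 1.14 (0.419 to 2.485), and their intervals held 1.

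Within the 587 kb that the window offers on both sides, 52 counts fell to the left (26 and 26; expected 48.2, ratio 1.08, 0.807 to 1.42) and 43 to the right (18 and 25; expected 65.3, ratio 0.659, 0.477 to 0.887). Without the anchors under 20 kb the ratios were 1.19 (0.862 to 1.61) and 0.857 (0.609 to 1.17), and each interval then held 1. The ratio of right to left at matched distance, 0.610 (0.398 to 0.932), turned to 1.30 when the promoter was taken as 5 kb on each side, which adds the anchor at the 3′ end of SOX9. The direction at matched distance thus depends on how the promoter is bounded.

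The excess in the left desert was not carried by 1 partner. Of the 133 counts in the window, 70 (52.6%; 27 and 43) fell on the 188 anchors left of ROCR, where 30.6 were expected (ratio 2.29, 1.79 to 2.89). The bin from -1500 to -1400 kb had 8 counts (2 and 6; expected 0.811, ratio 9.86, 4.26 to 19.4), and the bin from -1000 to -900 kb had 8 counts (4 and 4; expected 1.19, ratio 6.75, 2.91 to 13.3). The latter bin holds CASC17, an lncRNA gene, whose start anchor chr17:69197185-69201621 had 0 and 2 counts with the SOX9 promoter. The anchor chr17:68609608-68624722 near the left end of the window, which overlaps no gene, also had 0 and 2 counts at 1496 kb. The anchor chr17:69496076-69501286, at 614.9 kb and outside any gene, had 1 and 1. No single left partner beyond 100 kb had more than 2 counts. The 28 other anchors within 100 kb of the SOX9 promoter anchor together had 204 counts at more than 500 kb to the left (up to 2 Mb) where 106.3 were expected (ratio 1.92, 1.67 to 2.20), and 1 of them had a higher ratio than the SOX9 promoter anchor. The lean to the far left was therefore shared by the neighbourhood of SOX9, with a higher value at the promoter, and the difference between the promoter and its neighbours was not tested. To the right these 28 anchors had 100 counts where 126.0 were expected (ratio 0.794, 0.646 to 0.965).

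No contact of the SOX9 promoter with the 6 coding promoters examined on either side of the window was found. Left of the window, up to 1995 kb from the promoter anchor, 0 counts were found with 58 anchors where 1.72 were expected, which at this depth shows no shortfall. The promoter anchors of KCNJ2 (an inward rectifier potassium channel gene), of KCNJ16 (a channel gene of the same family) and of MAP2K6 (a kinase of the stress-activated MAP kinase pathway) had 0 counts with the SOX9 promoter. To the right the same held for SLC39A11 (a zinc transporter), SSTR2 (a somatostatin receptor) and COG1 (a subunit of a Golgi tethering complex). For each of these 6 genes fewer than 1 count was expected, from 0.0280 for KCNJ16 to 0.149 for SSTR2, so a contact was not detectable at this depth. KCNJ16 and MAP2K6 start more than 2 Mb from SOX9, beyond the fitted range, and their expected counts use its longest distance class. Right of the window 5 counts were found with 185 anchors (expected 12.1, ratio 0.413, 0.134 to 0.963). SOX9 was the sole coding gene among the 22 genes that start in the window, of which 14 are lncRNA genes. Apart from SOX9-AS1, 19 of the others had an anchor at the promoter, and the SOX9 promoter had from 0 to 3 counts with them, 0 for 9 of them. Among the lncRNA genes, the canonical start of LINC00511 had 0 counts with the SOX9 promoter where 0.887 were expected, LINC02003 had 2 (expected 1.43), ROCR, named as a regulator of chondrogenesis, had 1 (expected 1.99), LINC01152 had 3 (expected 1.13) and LINC02097 had 0 (expected 2.59).

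The anchor at the 3′ end of SOX9 had few contacts to the left at short range. Within 500 kb it had 10 counts to the left (6 and 4; expected 38.1, ratio 0.263, 0.126 to 0.483) and 49 to the right (23 and 26; expected 35.0, ratio 1.40, 1.04 to 1.85). The promoter anchor had 47 to the left (23 and 24; expected 46.6, ratio 1.01, 0.742 to 1.34) and 42 to the right (17 and 25; expected 60.6, ratio 0.693, 0.4996 to 0.937) over the same range. Both sets of values hold the pair that joins these anchors. Without it the 3′ anchor had 7 counts to the left (4 and 3; expected 23, ratio 0.304, 0.122 to 0.627), and its interval did not overlap that of the promoter anchor. The promoter anchor then had 39 counts to the right (15 and 24; expected 45.5, ratio 0.857, 0.609 to 1.17), with an interval that overlapped that of the 3′ anchor. Among the 29 anchors within 100 kb of the promoter anchor, the left ratio of the 3′ anchor was the lowest. The 3′ anchor also took part in 1 of the 10 loops of at least 100 kb with the highest counts in the window, to chr17:70374449-70379976 in LINC00511, with 2 and 2 counts at 253.2 kb (expected 0.389, ratio 10.3, 2.80 to 26.4). At more than 500 kb to the left the 3′ anchor had 21 counts (expected 8.71, ratio 2.41, 1.49 to 3.68), above expectation like the promoter.

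**Figure D2:**
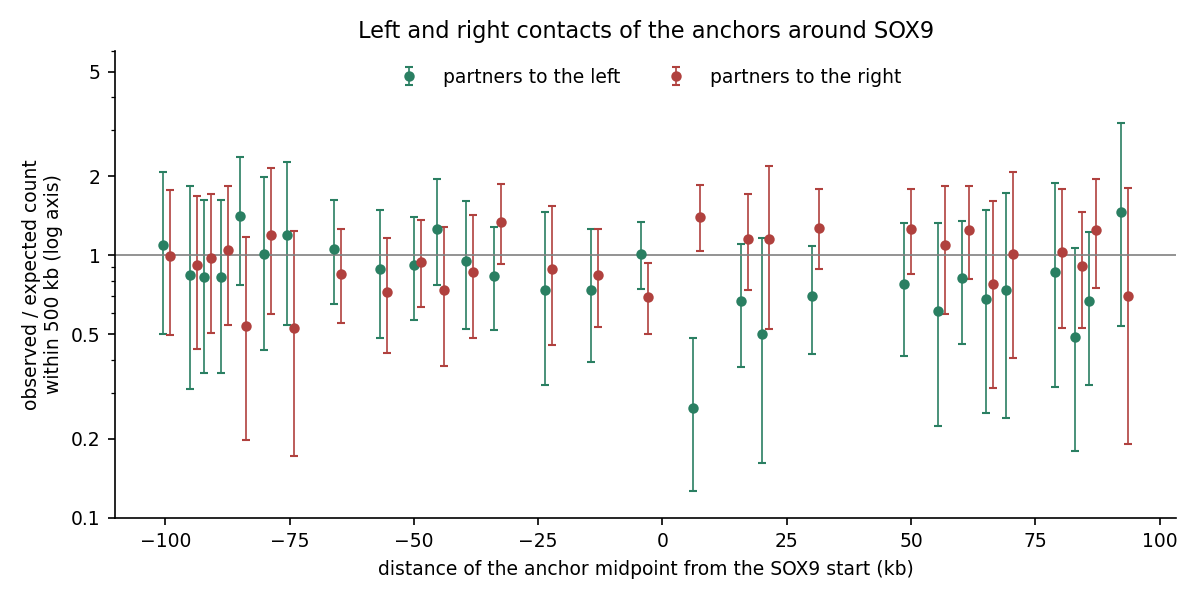
Observed over expected counts within 500 kb to the left and to the right (log axis), with exact Poisson 95% intervals, for the 29 anchors within 100 kb of the SOX9 promoter anchor, against the distance of the anchor midpoint from the SOX9 start in kb. The promoter anchor had ratios of 1.01 and 0.693, and the next anchor to the right, at the 3′ end of the gene, had 0.263 and 1.40.

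Counts that crossed a position, joining the 300 kb to its left with the 300 kb to its right, were the lowest against expectation 17.2 kb upstream of the SOX9 start. There 140 counts (76 and 64) were found where 213.6 were expected (ratio 0.655, 0.551 to 0.773). The position 50 kb farther downstream, at 32.8 kb, had a ratio of 1.03 (0.906 to 1.17). The highest ratio, 1.33 (1.20 to 1.48), was found 132.8 kb downstream, with 351 counts where 263.6 were expected. The lowest position stayed the same with 200 kb on each side (0.596) and in replicate 2 alone (0.557). In replicate 1 alone it lay at -367.2 kb (0.768), and with 500 kb on each side at -667.2 kb (0.961). The position of the minimum at SOX9 is therefore a value of the shorter spans and not of each replicate.

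**Figure D3:**
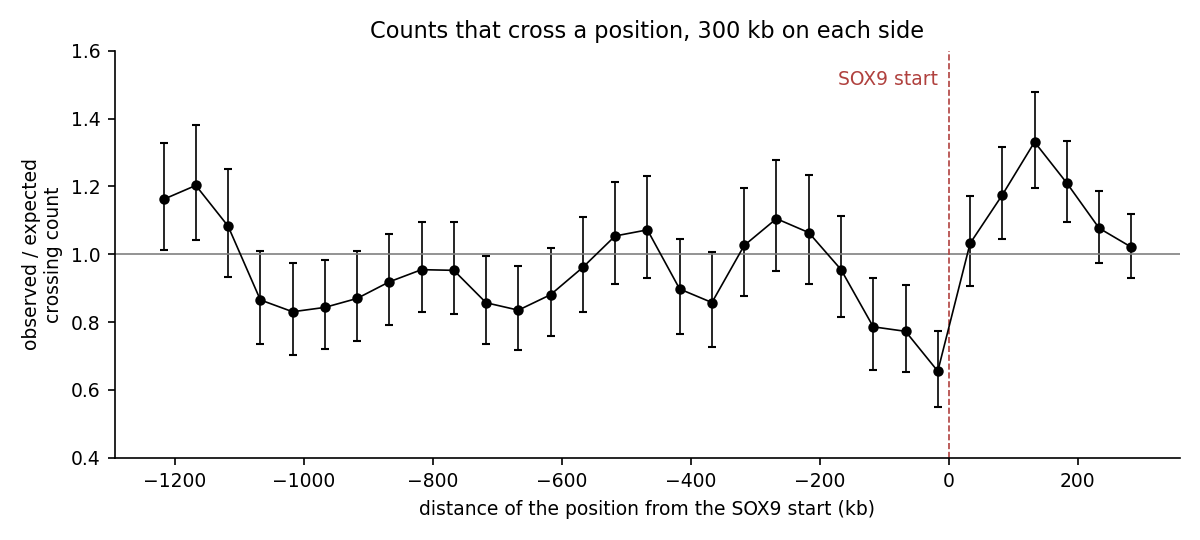
Observed over expected counts that cross a position with 300 kb on each side, at steps of 50 kb, with exact Poisson 95% intervals, against the distance from the SOX9 start in kb (dashed line at the start). The ratio was 0.655 at 17.2 kb upstream and 1.33 at 132.8 kb downstream.

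The window as a whole was densely covered. It held 133.3 anchors per Mb, and 157 of its 280 anchors overlapped no annotated gene. An anchor of the window had a median of 38 counts up to 2 Mb, compared with 16 over all anchors of the genome, and 38 of the 280 anchors (13.6%) were among the top 1% of the genome. By the mean count of its anchors, 49.7, the window stood at the 99.5th percentile of 1190 windows of 2.1 Mb, beside 28.8 and 38.9 in the windows to its left and right. Windows of the long arm of chromosome 17 beyond 40 Mb had means from 21.1 to 51.8 (median 37.6, 18 windows, 2 above that of SOX9), compared with 20.4 over all anchors of the genome. The number of copies of this arm in the cells was not measured, and its part in these counts was not tested.

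The counts of the anchors were uneven across the window. The left desert, up to the end of ROCR, had a median of 30 counts per anchor (7 to 87, 188 anchors). The stretch from ROCR to LINC00511, with SOX9, had a median of 33.5 (12 to 133, 36 anchors), LINC00511 one of 66.0 (18 to 160, 48 anchors), and the part to the right with the end of SLC39A11 one of 70.0 (55 to 209, 8 anchors). Of the 10 anchors with the highest counts, 9 lay in LINC00511 or to its right, and the other was the SOX9 promoter anchor. The highest was chr17:70653602-70660630, in an intron of SLC39A11 with the small RNA pseudogene RN7SKP180, with 106 and 103 counts. It was followed by chr17:70635258-70643439, over the RefSeq promoter of LINC00511 printed above and an exon of SLC39A11, with 81 and 89 counts, and by chr17:70581461-70589604, at the canonical start of LINC00511, with 70 and 90 counts. The same anchors had 25.4%, 18.8% and 28.1% of their counts in the window at 100 kb or more, compared with 78.9% for the SOX9 promoter anchor. The other 4 anchors above that of SOX9 had from 17.6% to 54.8%. All of these anchors lie closer to the right edge of the window than SOX9, and the edge cuts off far partners. Up to 2 Mb the shares were 37.45%, 34.4% and 45.75%, compared with 79.71% for the SOX9 promoter anchor. Those of the other 4 then ran from 37.77% to 57.04%. The anchor next to the promoter, at the 3′ end of SOX9, had 79.35%. Of the 98 anchors of the window with at least 50 counts, 2 had a higher share than the SOX9 promoter anchor. The replicates had a Pearson's r of 0.913 over the 280 anchors, which are not independent of each other.

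**Figure D4:**
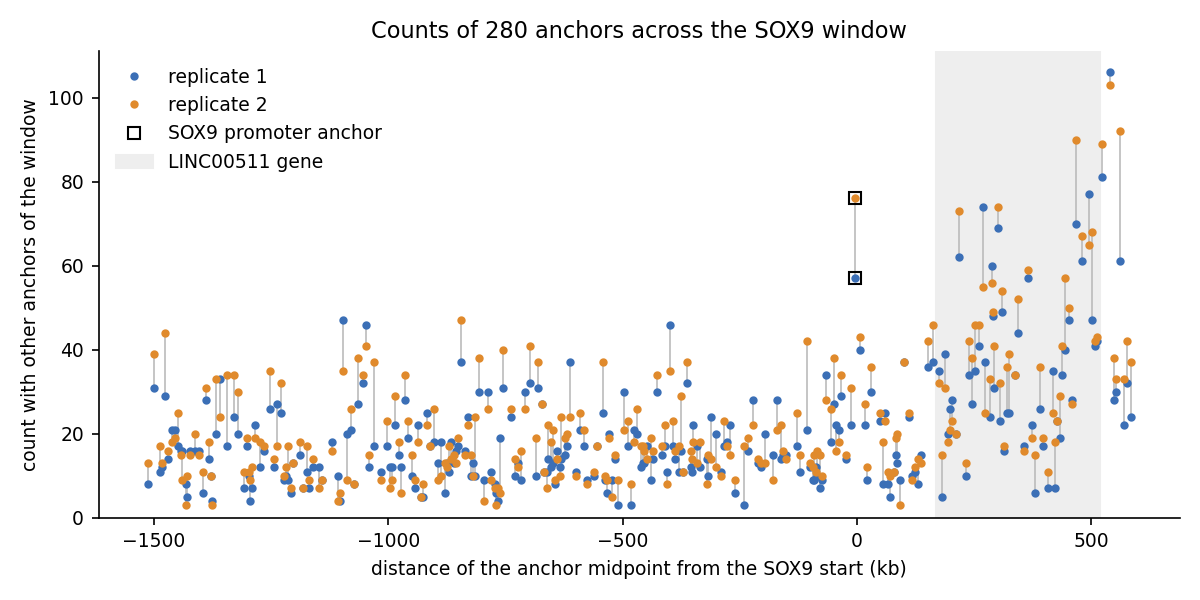
Count of each of the 280 anchors with the other anchors of the window in replicate 1 and replicate 2, joined by a grey line, against the distance of the anchor midpoint from the SOX9 start in kb. The SOX9 promoter anchor, with 57 and 76 counts, stood alone between the left desert and the anchors of LINC00511 (shaded) and beyond.

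Over the window 4162 loops were found in either replicate and 551 in both, which is 24.6% of replicate 1 and 22.3% of replicate 2. The median length of a loop was 183.4 and 190.2 kb in the replicates, compared with 143.3 and 149.0 kb over the genome. A summed count of at least 5 was reached by 133 loops, or 3.20% (exact binomial 95% interval 2.68 to 3.78%), beside 1.47% of the loops of up to 2 Mb in the genome. Of the 133 loops 131 were found in both replicates, which selection on the summed count favours, and 18 had at least 5 counts in each. By length, 42 of the 133 were 20 kb or longer, and 4 were 100 kb or longer. Loops with at least 5 counts inside LINC00511 numbered 55 of 430, and inside the left desert 29 of 1966, although the left desert was the longer segment (1.42 against 0.350 Mb). Against distance and depth, the summed counts inside these segments had ratios of 0.842 and 0.932, so LINC00511 held no excess inside itself. The most frequent loop, with 15 and 14 counts, joined the anchors with the 2 highest counts over 17.8 kb, and its ratio to expectation was 1.33 (0.891 to 1.91). The 10 most frequent loops all lay in LINC00511 or to its right, and their ratios ranged from 1.17 to 3.25.

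Contacts between distant segments exceeded expectation most, among the segment pairs, between the left desert and LINC00511, on either side of SOX9. They had 623 counts (317 and 306) where 323.7 were expected (ratio 1.93, 1.78 to 2.08). The left desert and the SOX9 stretch had 466 (212 and 254; expected 338.3, ratio 1.38, 1.26 to 1.51), and the left desert and the part right of LINC00511 had 65 (32 and 33; expected 61.9, ratio 1.05, 0.810 to 1.34). The counts of LINC00511 with the SOX9 stretch were 392 (172 and 220; expected 326.2, ratio 1.20, 1.09 to 1.33). Within segments the ratio was 0.932 (0.896 to 0.968) in the left desert and 0.816 (0.728 to 0.912) in the SOX9 stretch. It was 0.842 (0.792 to 0.894) within LINC00511 and 1.03 (0.889 to 1.18) within the part to its right. Expected counts of an anchor sum to about its own total, so an excess between segments goes with a shortfall elsewhere. The SOX9 promoter anchor itself had 29 counts with LINC00511 (11 and 18; expected 22.8, ratio 1.27, 0.853 to 1.83) and 1 with the part to its right (expected 3.61, ratio 0.277, 0.00701 to 1.54). Among single loops of at least 100 kb, the highest ratio of the 10 most frequent was found in the left desert, between chr17:68636584-68646230 and chr17:69015730-69026913, both outside genes, with 3 and 2 counts at 379.9 kb (expected 0.428, ratio 11.7, 3.79 to 27.2). It was called against distance alone, with an adjusted p of 7.04e-05 by the Poisson test, and not against distance and depth.

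Among the 19 SOX genes examined, the SOX9 promoter had the highest count, with 60 and 78 up to 2 Mb. SOX2, a factor of pluripotent and neural progenitor cells, followed with 28 and 32, SOX10, a factor of the neural crest, with 25 and 23, SOX12 with 17 and 28, and SOX4, which is expressed in many progenitor cells, with 17 and 20. The other 18 genes had from 0 to 60 counts in sum (median 14.5), and 6 of them, SOX1, SOX3, SOX5, SOX6, SOX11 and SOX15, had no anchor at the promoter. The share of counts at 100 kb or more was 86.5% for SOX4 (71.2 to 95.5%) and 70.0% for SOX2 (56.8 to 81.2%), and both intervals overlapped that of SOX9. The promoter anchors of SOX10 had 52.1% (37.2 to 66.7%). The anchors differed in width, 13238 bp for SOX9 compared with 9213 bp for SOX2 and 5834 bp for SOX4.

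**Figure D5:**
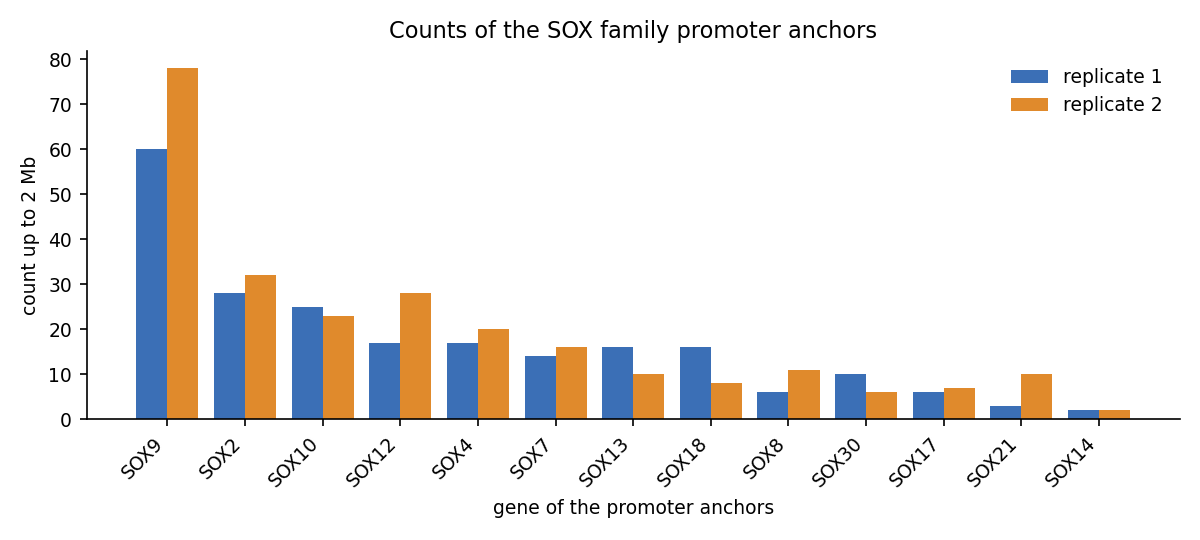
Counts up to 2 Mb of the promoter anchors of the 13 SOX genes with an anchor at the promoter, by replicate. SOX9, with 60 and 78 counts, stood above SOX2 with 28 and 32.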

How the data were processed

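The HiChIP data were 2 replicates of HCT116 cells with an antibody against H3K27ac. Per the labels and the methods, chromatin was cut with MboI, valid pairs came from HiC-Pro and loops from hichipper, on hg19. Versions and the source of the anchors are not given in the sources used here. The authors deposited raw counts of paired-end tags per anchor pair of one chromosome, not normalized, and same-anchor counts (16.0% and 14.2% of the totals) were set aside.

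The expected count of a pair was fitted in each replicate from 60 distance classes and anchor weights balanced in 20 rounds, with the count of the pair left out and an offset of 0.5, and summed over replicates. Whether summed counts lay above it was tested with the Poisson distribution (one-sided), and p-values were adjusted by Benjamini-Hochberg across the pairs of up to 2 Mb, with a threshold of 0.01. The test was run on counts simulated for 8526 anchors of chromosome 17, where 2, 2 and 3 calls fell on pairs left at expectation. Other values carry no test. Genes were those of GENCODE on GRCh37. Python 3.11.15, numpy 2.4.6, pandas 2.3.3, scipy 1.17.1 and numba 0.67.0 were used.

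The members, lists and alternatives were chosen with earlier results of these data known. Named were SOX9, genes starting in the window, the nearest genes outside and KCNJ2, the 10 anchors, 10 loops and 10 loops of at least 100 kb with the highest counts, the SOX9 promoter loops with at least 3 counts, and the SOX family. The values of segments, of single anchors by side or beyond 500 kb, and outside the window were added after seeing the data. The partners of the SOX9 promoter named with 2 counts and the anchor at its 3′ end as a viewpoint by side were chosen after their values were seen. Tags carry no molecular identifiers. Depth limits single loops of SOX9 to a few counts.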

Additional observations from a re-analysis of the deposited data

How the results depend on the processing

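The results were recomputed under alternatives of processing, giving 38 values, of which 25 stayed within the interval of the value reported, or within 1.5 times it for counts and ranks without an interval, and 13 did not. The number of loops per replicate, 2356.5, was 366.5 with a minimum count of 2 and 40.5 with one of 5. The share of loops with a summed count of at least 5, 3.20%, was 8.67% for at least 3, 0.745% for at least 10 and 1.14% for loops of 20 kb or more, and 1.56 to 1.86% with either replicate alone, where fewer counts are summed. The ratio of right to left contacts of the SOX9 promoter at matched distance, 0.610 (0.398 to 0.932), was 0.504 without replicate 2 and 0.717 without replicate 1. It was 0.719 at 20 kb or more and 0.828 against distance alone. It turned to 1.30 with a promoter of 5 kb on each side, which adds the anchor at the 3′ end of SOX9. The ratio at 100 kb or more, 1.43, was 8.91 against distance alone, which ignores the depth of the anchor. The rank of the SOX9 promoter anchor in the window, 8, was 158 per kb of width and 3 over contacts of 20 kb or more, and 5 to 11 with either replicate alone. The lowest crossing ratio, 0.655, was 0.961 with 500 kb on each side. The count of called loops of the SOX9 promoter stayed at 0 and its rank among SOX genes at 1 under each alternative run for them. No paired analysis was possible because there is 1 condition. Counts of 1 to 3 per loop limit every statement on a single partner of SOX9, and sums over many anchors carry the left and right contrasts. Anchors of several kb hold more than 1 element, so a contact cannot be assigned to the SOX9 start alone.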
